A study of Mus musculus with 12 samples.

Results

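Ebf1, Pax5, Cd22, Cd24a, Cd79a, Cd79b, Blnk, Pou2af1 and Cd72, 9 genes by which B cells are usually recognised, were followed through 4 mouse myeloid leukaemia cell lines. All 9 were measured, by 17 probe sets that the platform annotation pairs with a single gene symbol, among 18193 genes in all. A probe set is a group of short probes read as 1 value, and every probe set annotated to these genes was taken, whatever its values. The lines came from BXH-2 mice, an inbred strain prone to myeloid leukaemia. B140H and B117H were labelled highly resistant to cytarabine (Ara-C), a nucleoside analogue used against acute myeloid leukaemia (AML), with B140H deriving from the Ara-C-sensitive parental line B140P and B117H from the sensitive line B117P. Replicate arrays, 3 for every line, carry the letters A, B and C. Exposure to increasing Ara-C and passage in medium without it were stated for all 12 samples alike, so this text does not separate the lines. Whether a line is 1 clone, or whether its arrays came from separate cultures, is not stated in the labels, so the p-values speak only of the spread among these 12 arrays.

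B cell development depends on a small set of transcription factors. Ebf1 and Pax5 switch on genes of the B lineage, and Pax5 also silences genes of other lineages. Among the genes they activate are Cd79a and Cd79b, the signalling chains of the B cell receptor, whose signal passes through the adaptor Blnk. Cd22 and Cd72 are surface receptors that dampen that signal. Cd24a encodes a small glycoprotein on B cell precursors and also on other blood cells, and Pou2af1 encodes a coactivator of the octamer-binding factors. Myeloid cells normally keep most of this programme silent.

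The promoters of Cd79a, Cd22 and Cd72 are printed because these receptor genes were all higher in the B140 lines, where Ebf1 was also higher. RefSeq promoters (build GRCm38.p6, 250 bases before to 50 bases after the annotated start) matched 7 of the 9 genes, with 8 promoters. They were searched on both strands for CCCNNGGG, the core of the palindrome that Ebf1 binds, and for CAAGGGA, a form of its site known from the mouse Cd79a promoter. These motifs do not overlap in the promoters shown. CCCNNGGG stood in 4491 of 32851 promoters (13.7%) and CAAGGGA in 1662 (5.06%). The Cd79a promoter lies at chr7:24897247-24897546 on the plus strand and holds CAAGGGA at bases 174 to 168 before the start. The Cd22 promoter lies at chr7:30878979-30879278 on the minus strand and holds 1 match to CCCNNGGG at bases 48 to 41 before the start. The Cd72 promoter lies at chr4:43454577-43454876 on the minus strand and held neither motif, like those of Pax5, Pou2af1, Blnk and both of Ebf1. Each sequence runs 5′ to 3′ along the gene's strand, and capitals mark the match.
Cd79a: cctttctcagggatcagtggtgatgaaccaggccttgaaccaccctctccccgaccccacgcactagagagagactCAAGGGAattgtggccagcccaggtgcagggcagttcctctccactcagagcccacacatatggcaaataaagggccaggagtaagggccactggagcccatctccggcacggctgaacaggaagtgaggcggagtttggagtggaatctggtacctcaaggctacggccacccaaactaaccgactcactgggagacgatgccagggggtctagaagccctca
Cd22: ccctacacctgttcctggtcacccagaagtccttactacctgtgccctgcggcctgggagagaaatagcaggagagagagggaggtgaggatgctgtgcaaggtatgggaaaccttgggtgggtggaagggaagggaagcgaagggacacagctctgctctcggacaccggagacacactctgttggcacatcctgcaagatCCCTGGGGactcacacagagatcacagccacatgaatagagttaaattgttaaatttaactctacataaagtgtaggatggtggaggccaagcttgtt
Cd72: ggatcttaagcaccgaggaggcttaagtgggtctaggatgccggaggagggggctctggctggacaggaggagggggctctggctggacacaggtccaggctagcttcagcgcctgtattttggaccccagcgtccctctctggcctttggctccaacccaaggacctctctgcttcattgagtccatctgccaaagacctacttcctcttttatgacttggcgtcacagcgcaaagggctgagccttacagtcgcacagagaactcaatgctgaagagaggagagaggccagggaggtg
A match is a description of these letters and not a measurement of binding.

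The values are intensity units on the linear scale of RMA, a method that summarises the probes of a set. Array medians lay between 118 and 131 units, and the lowest value on any array was 7.65. The lower quartile of the B array of B140H was 58.6 units, against 50.8 to 53.7 units on the other arrays. Without that array, 14 of the 15 called differences that involve B140H were still called. The exception was the rise of Cd24a in B140H. Pearson's r across probe sets was 0.988 to 0.997 within a line and 0.954 to 0.967 between the lineages. A gene was represented by its probe set with the highest mean, differences are log2 values from limma with all 12 arrays in 1 fit, and a gene was called at a Benjamini-Hochberg adjusted p under 0.05 over 45037 probe sets.

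The myeloid label was checked against marker genes, and the lineages differed in it. Mpo, the myeloperoxidase of primary granules, averaged 156 ± 92.3 units in B140H and 748 ± 98.0 units in B140P, against 16824 ± 821 units in B117H and 25315 ± 2425 units in B117P (SD, n = 3 each). Lyz2, the lysozyme of myeloid cells, averaged 126 units in B140H and 107 units in B140P, against 1274 units in B117H and 2785 units in B117P. Both genes were near the array median in B140H, and so was Lyz2 in B140P. Other granule proteases stayed bright: Prtn3 averaged 4398 units in B140H and 4342 units in B140P, against 8134 units in B117H and 13964 units in B117P. Ctsg, chosen after its values were seen, averaged 9096 units in B140H and 11026 units in B140P, against 12719 units in B117H and 18218 units in B117P. These 2 genes make up much of the summed level of the myeloid markers in the B140 lines. Spi1, a transcription factor of myeloid cells and B cells, lay between 2347 and 2939 units in all 4 lines. Of 11 measured myeloid markers, 7 lay above the array median on every array of B140H, 8 in B140P, 11 in B117H and 10 in B117P. Their summed level was 18492 to 21156 units in B140H and 21431 to 22821 units in B140P, against 46755 to 47202 units in B117H and 65004 to 76645 units in B117P. By limma 9 of the 11 were lower and 0 higher in B140P than in B117P, where 23.8% of all genes were called. In B140H against B117H, where 27% were called, 7 were lower and 1 higher. On resistance 5 fell in B117H, where 9.41% of all genes were called, and 1, Mpo, fell in B140H, where 6.56% were. The B140 lines thus had fewer of these markers above the array median. Ms4a1, which encodes CD20 of mature B cells, stayed below every array median, with line means of 77.8 units in B140H, 84.5 units in B140P, 85.0 units in B117H and 85.0 units in B117P. In bulk RNA, fewer cells of a type and less RNA per cell cannot be told apart.

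Most of the B cell genes separated the lineages, and the resistant lines differed from their parents at fewer of them. Ebf1, Cd79a, Cd79b, Cd22 and Cd72 were higher in B140P than in B117P and higher in B140H than in B117H. Pax5 was called in none of these comparisons. Between a resistant line and its parent, Cd24a and Cd79b fell and Blnk rose in B117H, while Cd22 and Cd24a rose and Pou2af1 fell in B140H. With the array letter as a block, Cd79a and Cd79b were also called as higher in B140H than in B140P. The plot of levels by line shows each array of the 9 representative probe sets.

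**Figure D1:**
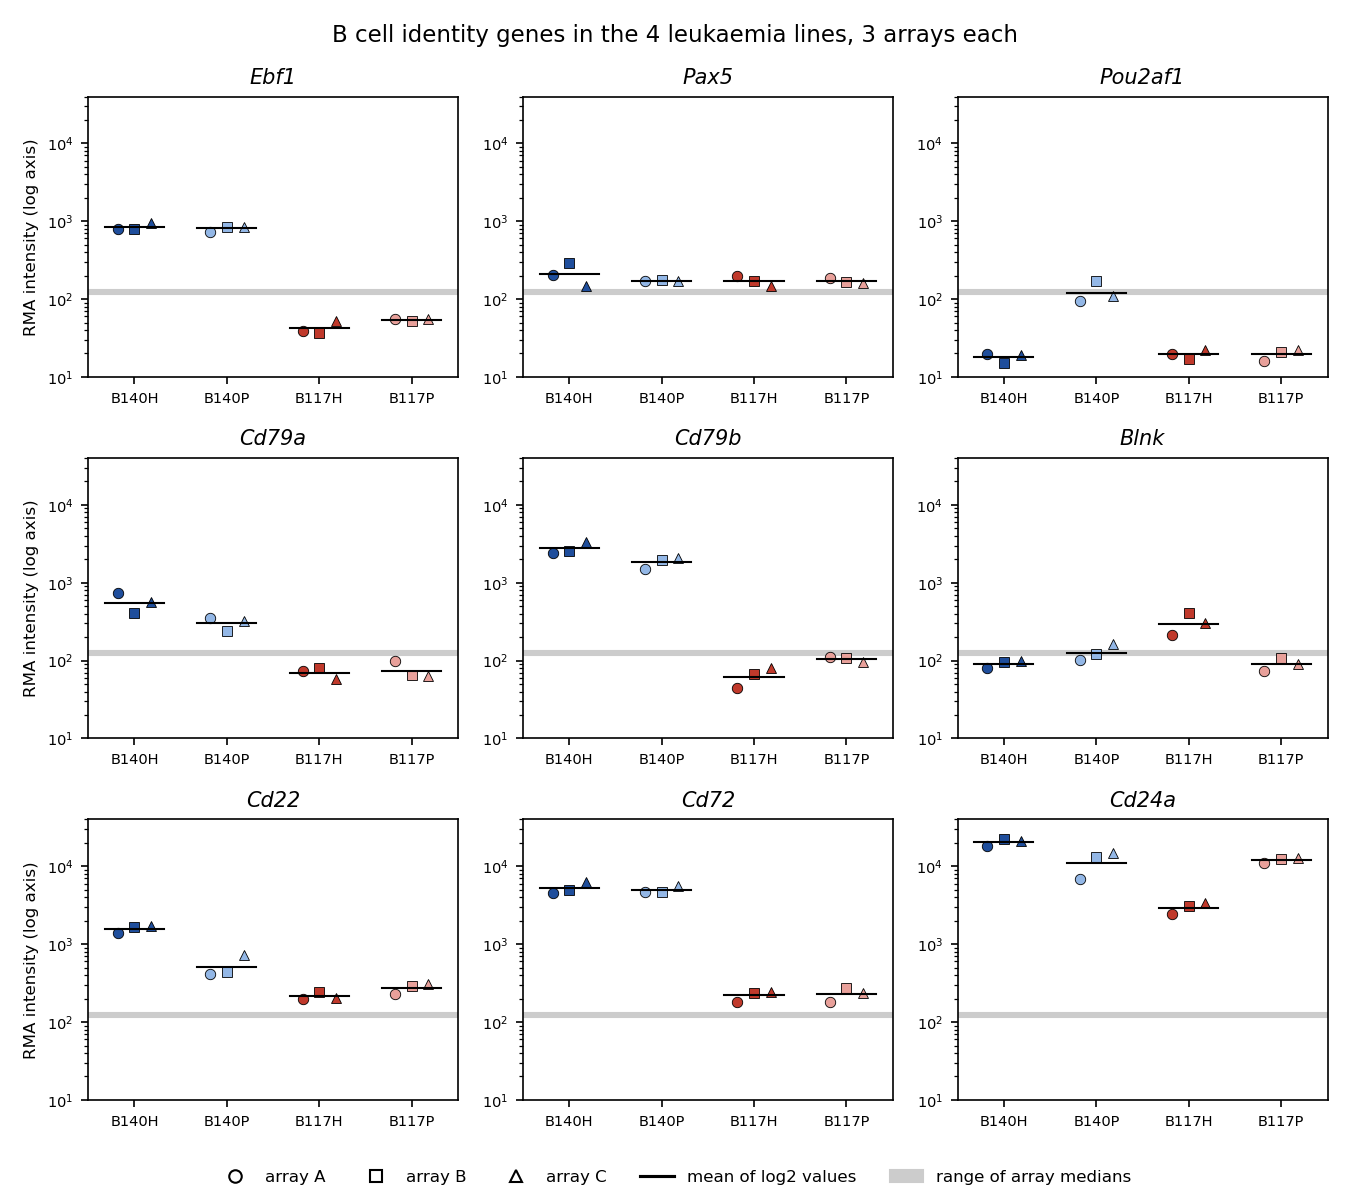
RMA intensity (log axis) of the representative probe set of each gene on the arrays of B140H, B140P, B117H and B117P. Symbols are single arrays (A, B, C), black lines mean log2 values (n = 3) and the grey band the range of the 12 array medians, 118 to 131 units. Ebf1, Cd79a, Cd79b and Cd72 lie far above their B117 levels in both B140 lines, while Pax5 lies close to the band in all 4 lines.

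Ebf1, the transcription factor that starts the B cell programme, was present at high level in the B140 lines and near the bottom of the scale in the B117 lines. Its representative probe set, 1439789_at, measured 788, 787 and 950.2 units in B140H and 731, 844 and 853 units in B140P. The same probe set measured 39.1, 36.8 and 52.4 units in B117H and 55.2, 52.4 and 55.3 units in B117P. All 6 B140 arrays lay far above all 6 B117 arrays. The difference was 4.28 for B140H over B117H (95% interval 3.99 to 4.56, adjusted p = 9.94e-11) and 3.87 for B140P over B117P (3.58 to 4.15, adjusted p = 2.50e-10).

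The 4 other Ebf1 probe sets gave differences of the same sign, with sizes that depended on the probe set. Probe set 1416301_a_at measured 829.9, 875 and 1171 units in B140H and 892, 952 and 1122 units in B140P, against 10.7, 9.01 and 12.3 units in B117H and 8.69, 11.8 and 12.7 units in B117P. These B117 values come within a few units of the lowest intensity on any array, so the size of the fold is not exact. Between B140P and B117P the difference was 6.37 at this probe set, 6.09 at 1448293_at, 5.51 at 1416302_at and 0.99 at 1457441_at. The adjusted p-values ran up to 5.59e-06. Probe set 1457441_at stayed below every array median even in the B140 lines. It measured 91.8, 102 and 94.5 units in B140H and 91.0, 91.8 and 85.3 units in B140P, and 48.4, 48.4 and 40.6 units in B117H and 45.4, 42.4 and 46.0 units in B117P, so its groups did not overlap either.

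Ebf1 was not called between a resistant line and its parent in either lineage. B140H differed from B140P by 0.05 (95% interval -0.23 to 0.34, adjusted p = 0.904), and the arrays overlapped. B117H differed from B117P by -0.35 (-0.64 to -0.07, adjusted p = 0.166) at the representative probe set, where the arrays came apart only narrowly. There 1416302_at had the opposite sign, with 0.28 (adjusted p = 0.126). At the representative probe set the difference was called in 3 of 27 alternative settings, each time between values that are all dim. These were without array C of B117H (-0.51, adjusted p = 0.0285), with the array letter as a block (adjusted p = 0.0488) and with array weights (adjusted p = 0.0450).

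**Figure D2:**
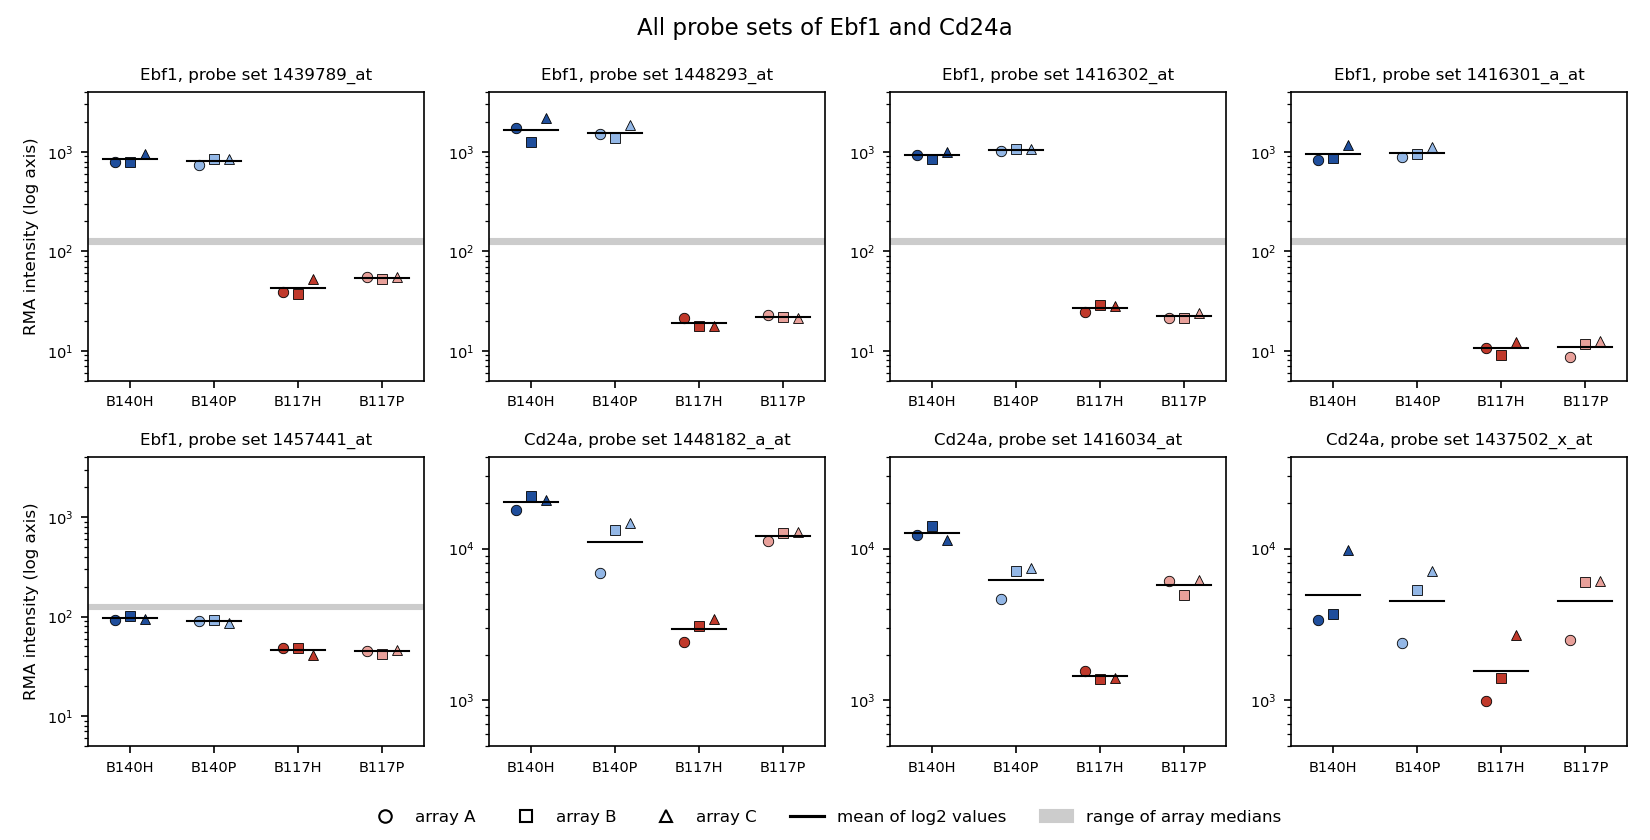
RMA intensity (log axis) at every probe set of Ebf1 (5) and Cd24a (3) on the arrays of B140H, B140P, B117H and B117P. Symbols are single arrays, black lines mean log2 values (n = 3) and the grey band the range of array medians. Every Ebf1 probe set separates the B140 from the B117 arrays, and at Cd24a probe set 1437502_x_at array C is the highest and array A the lowest of each line.

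Pax5, which fixes cells in the B lineage, did not follow Ebf1. Probe set 1454401_at measured 206, 292 and 148 units in B140H, 173, 175 and 170.5 units in B140P, 200.2, 170.1 and 149 units in B117H, and 186, 163 and 161 units in B117P. The lines overlapped with one another, at levels slightly above the array medians. B140P differed from B117P by 0.03 (95% interval -0.39 to 0.44, adjusted p = 0.973), and B140H from B117H by 0.27 (-0.15 to 0.68, adjusted p = 0.394). That second difference was 0.02 without array B of B140H (adjusted p = 0.956) and 0.51 without its array C (adjusted p = 0.0356), so it rests on single arrays. The other probe set, 1421765_at, ran from 77.3 to 117.4 units over the 12 arrays and was called in no comparison. Neither probe set was called between a resistant line and its parent. The differences at 1454401_at were 0.26 in B140H (-0.16 to 0.67, adjusted p = 0.622) and 0.02 in B117H (-0.40 to 0.43, adjusted p = 0.995). 

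Pou2af1, the coactivator that works with octamer factors, stood out in a single line, B140P. It measured 95.5, 169 and 109 units in B140P. It measured 19.6, 15.3 and 19.3 units in B140H, 19.7, 17.1 and 22.2 units in B117H, and 16.2, 20.7 and 22.0 units in B117P. The 3 B140P arrays lay near the array median, and the arrays of the other lines overlapped far below it. Pou2af1 fell in B140H against B140P by 2.69 on the log2 scale (95% interval -3.10 to -2.27, adjusted p = 4.73e-06), which is 6.44-fold. It was 2.57 higher in B140P than in B117P (2.16 to 2.99, adjusted p = 5.29e-07). Between the resistant lines the difference was -0.12 (-0.53 to 0.30, adjusted p = 0.739). RMA compresses values as low as those of B140H, so the fold may be understated.

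The receptor chains were higher in the B140 lines by several log2 units. Cd79b (1417640_at), the beta chain, measured 2425, 2589 and 3349.6 units in B140H and 1498, 1972 and 2095 units in B140P. It measured 44.6, 68.0 and 79.8 units in B117H and 112, 109 and 95.7 units in B117P. The line means ran B140H, B140P, B117P, B117H, and the arrays of neighbouring lines did not overlap, though not every neighbouring pair was called. B140P exceeded B117P by 4.11 (95% interval 3.68 to 4.54, adjusted p = 7.49e-09), and B140H exceeded B117H by 5.45 (adjusted p = 4.91e-10). Both B117 lines lay below the array median, where RMA compresses values and no background measure is at hand, so the sizes of these differences are not exact and may be understated.

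On resistance Cd79b was called by the main fit in B117H only, and that call rested on single arrays. In B117H it fell by 0.75 on the log2 scale (95% interval -1.18 to -0.32, adjusted p = 0.0385). This fall lies between levels that are both below the array median and cannot be told from no expression. That call ended without any 1 array of B117P (adjusted p = 0.114 without A, 0.119 without B, 0.0705 without C), without array A or B of B117H (-0.51 and 0.138 without A, 0.0715 without B) and without array B of B140P (0.0555). In B140H the difference from B140P was 0.59 (0.16 to 1.02, adjusted p = 0.146). With the array letter as a block, which pairs the B140 arrays, its adjusted p was 0.0370.

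Cd79a (1418830_at), the alpha chain, was also higher in both B140 lines. It measured 748, 407 and 567 units in B140H and 355, 243 and 325 units in B140P, against 72.9, 80.2 and 57.8 units in B117H and 97.4, 64.7 and 62.5 units in B117P. The B140 arrays all lay above the array medians and the B117 arrays all below, with overlap between B117H and B117P. B140P exceeded B117P by 2.04 (95% interval 1.54 to 2.54, adjusted p = 2.66e-05), and B140H exceeded B117H by 2.98 (2.48 to 3.48, adjusted p = 6.81e-07). In B140H against B140P the difference was 0.87 (0.37 to 1.37), with no overlap of arrays and an adjusted p of 0.0518. It was called with the array letter as a block (adjusted p = 0.00705), without array B of B140H (1.10, adjusted p = 0.0201) and without array A of B117P (adjusted p = 0.0342), and in 8 of 27 alternative settings in all. Cd79a in B140H therefore lies at the edge of the threshold in the main fit, which holds no letter term, and under it once the letters pair the B140 arrays. In the other pair, between dim levels, B117H differed from B117P by -0.07 (adjusted p = 0.979).

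Blnk (1451780_at), the adaptor that links the kinase Syk to Btk and Plcg2, was the gene of the set that was highest in B117H. It measured 215, 403 and 304 units in B117H against 74.2, 108 and 90.1 units in B117P. It measured 80.3, 97.1 and 97.3 units in B140H and 102, 120.3 and 165 units in B140P. All 3 B117H arrays lay above every other array, while B140H and B117P overlapped. Blnk rose in B117H by 1.72 (95% interval 1.24 to 2.20, adjusted p = 0.000341), or 3.30-fold, and B140H minus B117H was -1.69 (adjusted p = 8.79e-05). The levels of B117P and B140H lay below the array medians, where RMA compresses values, so the sizes of these differences are not exact and may be understated. In B140H the difference from B140P was -0.47 (-0.95 to 0.01, adjusted p = 0.363). B140P differed from B117P by 0.49 (0.01 to 0.98, adjusted p = 0.182), and with the array letter as a block this difference was called (adjusted p = 0.0247).

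Cd22, the sialic-acid-binding receptor that recruits phosphatases to the B cell receptor, was highest in B140H. Probe set 1419768_at measured 1406, 1652 and 1722 units in B140H and 413, 434 and 733 units in B140P. It measured 198, 244 and 204 units in B117H and 226, 292 and 309.7 units in B117P. B140H lay above B140P and B140P above the B117 lines without overlap, and the B117 lines overlapped. Cd22 rose in B140H against B140P by 1.64 (95% interval 1.21 to 2.07, adjusted p = 0.000312), or 3.12-fold. Its other probe set, 1419769_at, measured 251, 201 and 172 units in B140H against 56.8, 54.2 and 66.5 units in B140P, a rise of 1.79 (adjusted p = 1.60e-05). Both probe sets thus separated B140H from its parent without overlap. In B117H against B117P the difference was -0.35 (-0.78 to 0.08, adjusted p = 0.475). Between the parental lines it was 0.89 (0.47 to 1.32, adjusted p = 0.00540), and between the resistant lines 2.88 (adjusted p = 2.03e-07).

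Cd72 (1426112_a_at), the other inhibitory receptor, separated the lineages and was called within neither of them. It measured 4612, 5028 and 6219 units in B140H and 4711, 4751 and 5671 units in B140P, against 184, 239 and 243 units in B117H and 182, 272 and 238 units in B117P. Within each lineage the arrays overlapped, and between lineages they lay far apart. B140P exceeded B117P by 4.46 (95% interval 4.10 to 4.82, adjusted p = 6.05e-10), or 22.0-fold, and B140H exceeded B117H by 4.57 (adjusted p = 4.83e-10), or 23.7-fold. B140H differed from B140P by 0.06 (-0.30 to 0.42, adjusted p = 0.914), and B117H from B117P by -0.05 (-0.41 to 0.31, adjusted p = 0.982).

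Cd24a, the glycoprotein that B cell precursors share with other blood cells, was bright in every line and lowest in B117H. Probe set 1448182_a_at measured 2434, 3109.7 and 3435 units in B117H against 11156, 12606 and 12788 units in B117P. It measured 18078, 22342 and 20973 units in B140H against 6898, 13161 and 14774 units in B140P. B140H lay above all other arrays and B117H below them, while B140P and B117P overlapped. Cd24a fell in B117H by 2.04 on the log2 scale (95% interval -2.54 to -1.54, adjusted p = 0.000117), or 4.10-fold, and 1416034_at fell by 1.98 (adjusted p = 1.03e-05). The probe set 1437502_x_at, whose name marks probes that may also match other transcripts, measured 995, 1401 and 2708 units in B117H against 2487, 6053 and 6146 units in B117P. There the groups overlapped and the difference of -1.54 was not called (adjusted p = 0.115). Its sign was that of the other probe sets, and each B117H array lay below the B117P array of the same letter.

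In B140H Cd24a rose by 0.89 against B140P (95% interval 0.39 to 1.39, adjusted p = 0.0469), close to the threshold. Leaving out any single array other than array C of B140P ended that call, with adjusted p-values between 0.0504 (without array A of B117H) and 0.152 (without array B of B140H), and without array A of B140P the value was 0.55 (adjusted p = 0.0946). At 1416034_at the levels were 12329.6, 14138 and 11421 units in B140H against 4626, 7102 and 7420.2 units in B140P, with no overlap, and the rise was 1.01 (adjusted p = 0.00283). At 1437502_x_at the difference was 0.14 (adjusted p = 0.940). The parental lines did not differ by a called amount (-0.14, -0.64 to 0.36, adjusted p = 0.834), and B140H exceeded B117H by 2.78 (adjusted p = 1.24e-06).

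**Figure D3:**
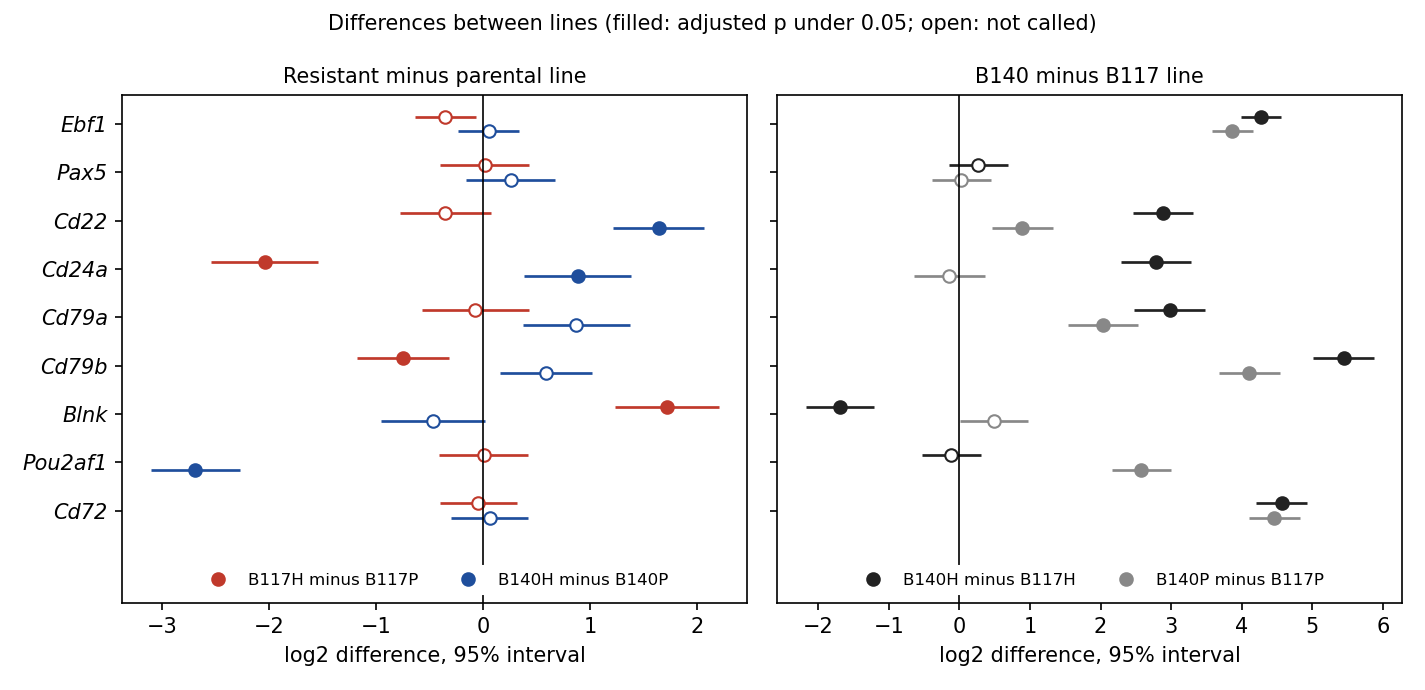
Log2 differences of the representative probe sets with 95% intervals from limma (n = 3 arrays per line), resistant minus parental line at left and B140 minus B117 line at right. Filled points have an adjusted p under 0.05. Ebf1, Cd22, Cd79a, Cd79b and Cd72 lie above 0 in both lineage comparisons, while Cd24a has called changes of opposite sign in the resistant lines.

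Counted over the 9 genes, the lineage comparisons held the most calls. Between B140P and B117P 6 genes were higher in B140P (Ebf1, Cd22, Cd79a, Cd79b, Pou2af1 and Cd72) and 0 were lower. Of all genes, 23.8% were called there, 12% higher and 11.8% lower. The share of the 9 genes that were higher exceeded that of all genes. The 9 genes were chosen with earlier results of these data known, so this excess is a description and not a test. The median difference of the 9 genes was 2.04, and that of all genes 0.00. Between B140H and B117H 6 genes were higher (Ebf1, Cd22, Cd24a, Cd79a, Cd79b and Cd72) and Blnk was lower, where 27% of all genes were called, 13.3% higher and 13.7% lower. The medians were 2.88 for the 9 genes and 0.07 for all genes. In each of these comparisons 7 of the 9 genes had an unadjusted p under 0.05. Over the 17 probe sets, several of which measure the same gene, 11 were higher and 0 lower in B140P, and 13 were higher and 1 lower in B140H. The matching shares of all genes at an unadjusted p, and of all probe sets, were not computed, so these counts only describe. The lineages also differ in the myeloid and early B cell genes given here, whose part in these differences was not tested.

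Between resistant and parental lines the calls were fewer. In B117H 1 of the 9 genes rose (Blnk) and 2 fell (Cd24a and Cd79b), where 9.41% of all genes were called, 4.73% higher and 4.68% lower. The median change was -0.07, against -0.01 for all genes. In B140H 2 rose (Cd22 and Cd24a) and 1 fell (Pou2af1), where 6.56% of all genes were called, 2.81% higher and 3.75% lower. Its median change was 0.26, against 0.05 for all genes. With the array letter as a block Cd79a and Cd79b were called as well, which made 5 of 9, where 10% of all genes were called. At an unadjusted p under 0.05 there were 4 of 9 in B117H and 5 of 9 in B140H, with no matching share of all genes computed. These resistance comparisons share arrays with the lineage comparisons, so their counts are not independent of one another.

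The change on resistance differed between the lineages for 5 of the 9 genes, by a test of the B140 change minus the B117 change. Of all genes 10.4% were called in that test, 4.91% higher and 5.51% lower. Cd24a differed by 2.92 (95% interval 2.22 to 3.63, adjusted p = 0.000142), made of 0.89 in B140H and -2.04 in B117H. It was the 1 gene of the set called in both pairs, with opposite signs, though its B140H call lay close to the threshold. The difference was also called at 1416034_at (2.99, adjusted p = 9.62e-06), but not at 1437502_x_at (1.68, adjusted p = 0.242). Cd22 differed by 1.99 (1.39 to 2.59, adjusted p = 0.000766) and Cd79b by 1.34 (0.73 to 1.95, adjusted p = 0.0102), both with the higher change in B140H. Blnk differed by -2.19 (-2.87 to -1.51, adjusted p = 0.000938) and Pou2af1 by -2.69 (-3.28 to -2.10, adjusted p = 6.62e-05). For Pou2af1 this is the fall in B140H beside a change of 0.01 in B117H, and for Blnk it is the uncalled -0.47 in B140H less the rise of 1.72 in B117H. The values for Ebf1 (0.41, adjusted p = 0.269), Pax5 (0.24, adjusted p = 0.744), Cd79a (0.94, adjusted p = 0.117) and Cd72 (0.11, adjusted p = 0.886) were not called. At the Ebf1 probe set 1416302_at the value had the opposite sign and was not called either (-0.47, adjusted p = 0.0587). Without array B of B140H the Cd79a value was 1.17 (adjusted p = 0.0398). It was also called with the array letter as a block (adjusted p = 0.0222) and with array weights (adjusted p = 0.0446).

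Genes of earlier B cell stages also differed between the lineages, with more of them higher in the B140 lines. Of 11 measured early B cell genes, 8 were higher and 0 lower in B140P than in B117P (median 2.28), where 23.8% of all genes were called. In B140H against B117H, where 27% were called, 6 were higher and 2 lower (median 1.46). Rag1, which cuts DNA when antigen receptor genes are rearranged, averaged 681 ± 317 units in B140H and 1168 ± 77.8 units in B140P, against 27.6 ± 6.18 units in B117H and 18.7 ± 2.72 units in B117P. Igll1, part of the surrogate light chain, averaged 638 ± 137 units in B140H and 1979 ± 1064 units in B140P, against 229 ± 22.3 units in B117H and 207 ± 11.3 units in B117P. Its probe set name ends in _x_at, which marks probes that may also match other transcripts. Rag1 also serves T cell precursors, whereas the surrogate light chain belongs to B cell precursors. The list's summed level was 22501 to 28011 units in B140H and 24424 to 31983 units in B140P, against 14454 to 22426 units in B117H and 5728 to 9465 units in B117P. Flt3 made the largest part of the B140 sums, at 10857 units in B140H and 9364 units in B140P. Its means were 2546 units in B117H and 1852 units in B117P. Cd93 added 5263 units in B140H and 4034 units in B140P, against 1911 units in B117H and 2184 units in B117P. The order of the sums thus leans on these genes and need not hold for the others. Of the 11 genes, 9 lay above the array median on every array of B140H, 9 in B140P, 8 in B117H and 7 in B117P. On resistance, B117H had 4 that rose and 0 that fell, where 9.41% of all genes were called. B140H had 0 that rose and 3 that fell, where 6.56% were called. Vpreb1, the other part of the surrogate light chain, rose by 2.78 in B117H (adjusted p = 4.82e-05) and changed by -1.40 in B140H (adjusted p = 0.0114). Dntt, which adds bases at receptor gene joints, rose by 2.0 in B117H (adjusted p = 0.00216) and changed by -1.91 in B140H (adjusted p = 0.00461). The difference between lineages was called for both (adjusted p = 4.03e-05 for Vpreb1 and 0.000254 for Dntt). Both had their highest mean in B117H. Vpreb1 averaged 1170 units in B140H and 3202 units in B140P, against 4385 units in B117H and 666 units in B117P. Dntt, also read from an _x_at probe set, averaged 1706 units in B140H and 6375 units in B140P, against 8767 units in B117H and 2364 units in B117P.

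**Figure D4:**
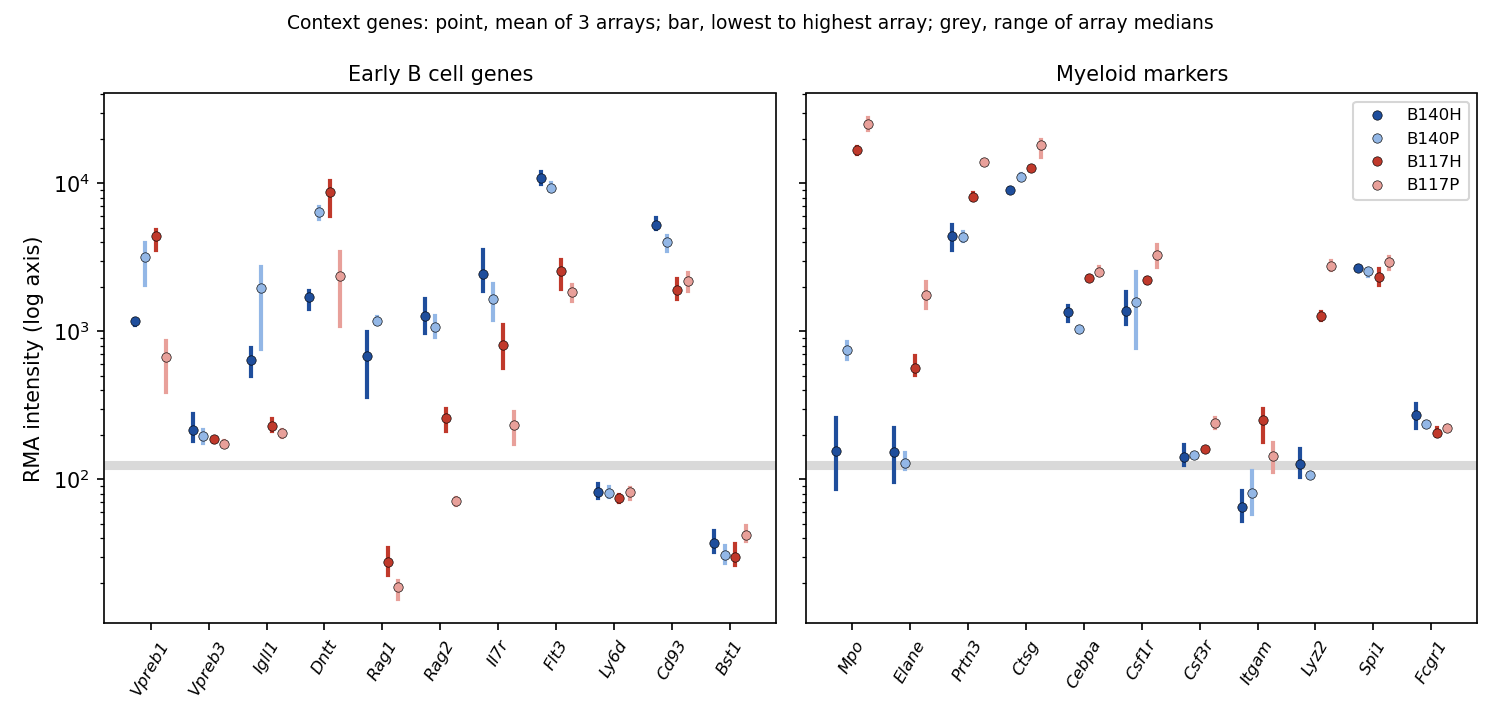
RMA intensity (log axis) of early B cell genes (left) and myeloid markers (right). Points are means of 3 arrays of B140H, B140P, B117H and B117P, bars run from the lowest to the highest array and the grey band is the range of array medians. Rag1, Rag2, Igll1 and Flt3 are higher in the B140 lines, while Vpreb1 and Dntt have their highest mean in B117H. Mpo, Elane and Lyz2 are higher in the B117 lines.

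Genes of the mature B cell surface were called in both directions. Of 14 measured, 4 were higher and 1 lower in B140P than in B117P (median 0.14), where 23.8% of all genes were called, and 3 were higher and 1 lower in B140H than in B117H (median 0.17), where 27% were called. On resistance 1 rose and 1 fell in B140H, where 6.56% of all genes were called. In B117H, where 9.41% were called, limma called 0 of the 14, and 2 had an unadjusted p under 0.05. Cd37, a tetraspanin of B cells, was 1.55 higher in B140P than in B117P (adjusted p = 2.04e-07). Tnfrsf13b, a receptor for B cell survival factors, was 1.72 higher in B140H than in B117H (adjusted p = 2.09e-07) and rose by 0.53 in B140H against B140P (adjusted p = 0.0212). Ltb, on the same list, changed by -1.16 in B140H against B140P (adjusted p = 0.00203). Cd53 had lower means in the B140 lines, at 4792 units in B140H and 5204 units in B140P, against 7685 units in B117H and 9338 units in B117P. Ighm, the heavy chain gene of IgM, was bright in all lines, with means of 10129 units in B140H, 8646 units in B140P, 9485 units in B117H and 5689 units in B117P. It was the 1 called gene of 4 measured immunoglobulin genes, rising by 0.73 in B117H (adjusted p = 0.00361) and standing 0.60 higher in B140P than in B117P (adjusted p = 0.00460).

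B cell receptor signalling genes, many of which myeloid cells also use, gave calls in both directions. Of 24 measured, 9 were higher and 4 lower in B140P than in B117P (median 0.09), where 23.8% of all genes were called. In B140H against B117H, where 27% were called, 7 were higher and 6 lower (median -0.02). Plcg2, the phospholipase that Blnk brings to the receptor, was 1.16 higher in B140P than in B117P (adjusted p = 6.67e-07). Fcgr2b, an inhibitory receptor for IgG, stood at -1.77 in the same comparison (adjusted p = 3.57e-05). On resistance, B117H had 4 that rose and 1 that fell, where 9.41% of all genes were called. B140H had 3 that rose and 1 that fell, where 6.56% were called. Bcl10, which carries the signal to NF-kB, rose in both resistant lines, with a change of 1.14 for B117H (adjusted p = 0.000399) and of 0.88 for B140H (adjusted p = 0.00419). Bank1, a B cell scaffold protein, rose by 1.23 in B140H (adjusted p = 0.000451), where it averaged 148 ± 13.3 units against 63.5 ± 13.9 units in B140P. Its B117 levels lay lower still, at 34.6 units in B117H and 42.4 units in B117P.

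Other transcription factors of the B lineage gave calls in both directions. Of 21 measured, 3 were higher and 5 lower in B140P than in B117P (median -0.16), where 23.8% of all genes were called. In B140H against B117H, where 27% were called, 3 were higher and 8 lower (median -0.14). Foxo1, which acts with Ebf1 in B cell precursors, averaged 135 units in B140H and 158 units in B140P, against 631 units in B117H and 355 units in B117P. Bach2, a repressor active in B cells, averaged 154 units in B140H and 196 units in B140P, against 881 units in B117H and 588 units in B117P. Both were lower in the B140 lines, by differences of -1.16 and -1.58 between B140P and B117P (adjusted p = 0.00258 for Foxo1 and 2.83e-06 for Bach2). Irf8, a factor of B cells and monocytes, rose by 0.76 in B140H (adjusted p = 0.00201) and changed by -1.02 in B117H (adjusted p = 0.000134).

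Genes beyond the 9 that Ebf1 or Pax5 are known to activate were called in both directions. Most of them also stand in the lists above, and their calls on resistance were already counted there. Of 13 measured, 3 were higher and 1 lower in B140P than in B117P (median 0.09), where 23.8% of all genes were called, and 2 were higher and 3 lower in B140H than in B117H (median 0.00), where 27% were. On resistance, B117H had 2 that rose and 0 that fell, and B140H 1 that rose and 2 that fell, beside 9.41% of all genes called in B117H and 6.56% in B140H. Of 9 genes known to be repressed by Pax5, 2 were higher and 2 lower in B140P than in B117P, and 3 were higher and 0 lower in B140H than in B117H. Among them Flt3, a cytokine receptor of progenitors, was 2.34 higher in B140P than in B117P (adjusted p = 1.46e-07) and Csf1r, a receptor of monocytes, stood at -1.22 (adjusted p = 0.0186). Flt3 was also counted among the early B cell genes, and Csf1r among the myeloid markers.

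Markers of other cell types were also checked. Of 5 plasma cell markers and 4 erythroid markers, limma called 0 in any of the 5 comparisons, with 3 and 3 unadjusted p-values under 0.05 over 25 and 20 tests. Cd3e of T cells averaged 211 units in B140H, 189 units in B140P, 171 units in B117H and 190.1 units in B117P, and Ncr1 of NK cells lay below every array median in each line mean, at 92.8 to 105 units. Siglech, a marker of plasmacytoid dendritic cells, was higher in the B140 lines, at 838 ± 171 units in B140H and 1269 ± 428 units in B140P, against 226 ± 20.8 units in B117H and 223 ± 5.37 units in B117P. Of 5 measured markers of those cells, 2 were higher and 0 lower in B140P than in B117P, where 23.8% of all genes were called. In B140H against B117H, where 27% were called, 2 were higher and 1 lower. The summed level of these markers was 5098 to 5541 units in B140H and 5755 to 6883 units in B140P, against 4468 to 4753 units in B117H and 4033 to 4421 units in B117P. Tcf4, with the largest part of that sum, averaged 2616 units in B140H and 3313 units in B140P, against 3412 units in B117H and 2596 units in B117P. Bst2 averaged 1752 units in B140H and 1584 units in B140P, against 854 units in B117H and 1215 units in B117P. Ccr9 and Spib lay below every array median in all 4 lines. Siglech itself was higher in both lineage comparisons, with 2.45 for B140P over B117P (adjusted p = 1.46e-06) and 1.87 for B140H over B117H (adjusted p = 1.59e-05). The part of such cells in the values of the B cell genes was not tested.

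For 8 genes, all but Pax5, the line means spanned at least 1 log2 unit, and the 3 genes most like each were named by Pearson's r of log2 levels over the 12 arrays. The arrays are 3 from each of 4 lines, so r mostly reflects the line means, and 1911 candidate genes were ranked. Ebf1 was most like Slc11a1, a metal transporter of phagosomes (r = 0.997), Tnk2, a tyrosine kinase (r = 0.997), and Cd81, a tetraspanin (r = 0.996). Cd72 was most like Htra3 (r = 0.997), Rassf4 (r = 0.997) and Eif2ak1 (r = 0.996), and Cd79b was most like Krt10 (r = 0.996), Smurf2 (r = 0.995) and Fhit (r = 0.994). These genes share the step between the B140 and B117 lines.

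Cd22 was most like Bank1 and Itga4 (r = 0.990 each), with Rsph9 next (r = 0.988), genes that stood highest in B140H. Cd79a was most like Pms2 (r = 0.984), Nrm (r = 0.983) and Mtif3 (r = 0.981). Pou2af1 shared its single high line with Col11a1 (r = 0.980), Serpinb8 (r = 0.972) and Epop (r = 0.965). Epop averaged 31.6 units in B140H against 417 units in B140P, with 25.4 units in each B117 line. Cd24a was most like Secisbp2 (r = 0.969), Lman2 (r = 0.963) and Wdr1 (r = 0.960). Blnk was most like Ppp1r16b (r = 0.940), Plcg1, a phospholipase (r = 0.939), and Fbxo7 (r = 0.938), each with its highest mean in B117H.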

How the data were processed

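Total RNA of 12 samples was hybridised to 12 one-colour arrays, 3 per line. The authors deposited 1 probe-set intensity per array, made with RMA per the submitters' processing notes; its version, its settings and a genome build were not given in the sources used here. The linear scale of the deposited intensity was inferred from the range, 7.65 to 36675 units. They were taken as log2(value + 1), so differences are on that scale, and RMA compresses low values. No detection calls came with them, and the number of arrays limits the precision.

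Of 45101 probe sets, 64 controls were left out and 45037 tested. The platform annotation gave 34945 of them 1 gene symbol, 932 several and 9160 none, and no gene was named from several. A gene's representative probe set has the highest mean over all arrays. limma 3.58.1 (R 4.3.3; lmFit, contrasts.fit, eBayes, two-sided) was fitted on all 12 arrays with 1 coefficient per line, with Benjamini-Hochberg adjustment over 45037 probe sets and calls under 0.05. The fit had 8 residual and 4.65 prior degrees of freedom and a median residual SD of 0.154 log2 units. The code was tested on simulated data.

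The members and lists were chosen with earlier results of these data known. Named were all 9 members, up to 4 called genes per list and comparison, genes that define a cell type, and 3 genes most like each member. Listed genes without a probe set of their own were not analysed here.

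Array letters were checked by correlating deviations from line means across probe sets for A, B and C. Between B140H and B140P r was 0.587, 0.360 and 0.560, between B140H and B117H 0.455, 0.349 and 0.532, and between B140P and B117P 0.499, 0.131 and 0.414, so the letters pair these arrays. Between B117H and B117P r was 0.555, 0.0278 and 0.392. There A and C were correlated too, and B alone lay below 0.1, the threshold set for pairing. The fit holds no letter term, and the letter entered as a block in 1 alternative. The others were pseudocounts of 0 and 16, quantile normalization applied again, median centring, an intensity trend with robust prior, array weights, brighter probe sets only, all probe sets of a gene averaged, leaving out _s_at and _x_at probe sets, an adjusted p under 0.01, the pair's arrays alone, and leaving out each array or letter.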

Additional observations from a re-analysis of the deposited data

Results flagged for a closer look

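For 5 genes the change on resistance differed between the lineages, by limma's test of the difference of changes (B140H minus B140P, less B117H minus B117P). At its representative probe set Cd24a differed by 2.92 on the log2 scale, with its 3 B140H arrays above the 3 B140P arrays and its 3 B117H arrays below the 3 B117P arrays. At 1437502_x_at the difference was not called (1.68, adjusted p = 0.242). Cd22 differed by 1.99 and Cd79b by 1.34, both higher in the B140 change. Blnk differed by -2.19, from an uncalled -0.47 in B140H and a rise of 1.72 in B117H, and Pou2af1 by -2.69, from a fall in B140H beside 0.01 in B117H.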

How the results depend on the processing

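Over 27 alternative settings, 21 of the 24 called differences of the 9 genes stayed called and 0 reversed. The exceptions were Cd79b in B117H (lost in 12 settings, adjusted p up to 0.269), Cd24a in B140H (lost in 19, adjusted p up to 0.340) and the Cd79b difference between lineages (lost in 2: at a threshold of 0.01, and without all B arrays, 1.47, adjusted p = 0.132). With the replicate block, 5 genes were called in B140H against B140P (main 3); there Cd79a (0.87, adjusted p = 0.00705) and Cd79b (0.59, adjusted p = 0.0370) were gained. The block also gave a call of Ebf1 in B117H (adjusted p = 0.0488), of Blnk between the parental lines (0.0247) and of the Cd79a difference between lineages (0.0222), and changed no other call. Of the 21 uncalled differences, 6 were called somewhere and 10 changed sign somewhere, and these were not counted as reversals. Leaving out arrays, the counts of called genes ran from 2 to 4 in B117H, 2 to 3 in B140H, 4 to 6 for the difference of changes, 6 to 6 between parental lines and 7 to 8 between resistant lines. With brighter probe sets only, Pou2af1 had no value, and the difference of changes cannot be had from 1 pair alone. The causes of these shifts were not tested. No background signal came with the values, so levels below the array medians, as of Ebf1 and Cd79b in the B117 lines, cannot be told from no expression.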

Other observations

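CD22 belongs to the Siglecs, receptors that bind sialic acids, and other members of that family also differed between the lineages, in both directions. Of 9 measured family members and CD22 partners, 3 were higher and 2 lower in B140P than in B117P (median -0.06), where 23.8% of all genes were called. In B140H against B117H, where 27% were called, 3 were higher and 2 lower (median 0.22). Cd33, a Siglec of myeloid cells, averaged 1380.0 ± 405 units in B140H and 2688 ± 653 units in B140P, against 463 ± 43.5 units in B117H and 385 ± 96.3 units in B117P (SD, n = 3 each). Siglecf, a Siglec of eosinophils and some macrophages, lay below the array medians in B140H (36.6 units) and B140P (34.7 units), against 282 units in B117H and 180.1 units in B117P. On resistance Cd33 changed by -0.97 in B140H (adjusted p = 0.0281), where Cd22 rose. St6gal1, which makes the sialic acid linkage that CD22 binds, changed by -0.75 in the same line (adjusted p = 0.0228). Siglecg, another inhibitory Siglec of B cells, was lower in B117H than in B117P by a change of -0.81 (adjusted p = 0.00105).

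Of 9 T cell markers, 0 were higher and 2 lower in B140P than in B117P, and 1 was higher and 1 lower in B140H than in B117H, shares near the 23.8% and 27% of all genes called there. Cd28, a costimulatory receptor that Pax5 is known to repress, averaged 3789 ± 163 units in B140H against 1808 ± 308 units in B140P, and 1752 ± 457 units in B117H against 4449 ± 1354 units in B117P. Its changes on resistance were called with opposite signs, 1.08 in B140H (adjusted p = 0.0163) and -1.32 in B117H (adjusted p = 0.00297). Klrd1, an NK cell receptor chain and the 1 called gene of 4 NK cell markers, rose by 1.92 in B117H (adjusted p = 0.00809) and changed by -1.48 in B140H (adjusted p = 0.0497).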
